A study of Mus musculus with 6 samples.

Results

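The genes described here are 9 that are used to mark neutrophils and granulocytic suppressor cells: S100a8, S100a9, Csf3r, Retnlg, Ly6g, Clec4d, Trem1, Lcn2 and Acod1. They were taken by name from a list and are 9 of 23557 genes in the table. All 9 were present in it, 8 had a count above 0 in at least 1 tumor, and 7 reached a mean of 0.5 CPM (counts per 1000000 counts) over the 6 tumors and were tested among 13118 genes. The values come from bulk RNA sequencing of CT26 tumors, grown from a murine colorectal carcinoma cell line in its BALB/c host, in 3 mice given NaCl and 3 given H89. H89 is an inhibitor of protein kinase A, the kinase that cAMP activates, and of other kinases. All mice were females of 7 weeks and received 500000 CT26 cells under the skin of the right flank. From day 6, both groups were injected into the peritoneum 2 times a week, with NaCl alone or with H89 at 10 mg/kg in NaCl, and the tumors were collected on day 14. The comparison addresses whether H89 changed the level of these genes in the tumor. The deposited values are estimated read counts, which summed to between 27067349 and 31958793 per tumor and were divided by that sum to give CPM.

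Neutrophils are short-lived granulocytes that leave the bone marrow under the control of the growth factor G-CSF, and in tumors part of them can restrain T cells, for which they are called granulocytic suppressor cells. S100A8 and S100A9 form calprotectin, a protein abundant in the neutrophil cytoplasm, and LCN2 is a granule protein that binds iron-carrying siderophores. CSF3R is the G-CSF receptor, CLEC4D and TREM1 are surface receptors that signal through adaptor proteins with an activation motif, and ACOD1 makes itaconate in mitochondria. Csf3r, Clec4d, Trem1 and Acod1 are among the members also used by monocytes or activated macrophages, so that in whole tumors they are not specific to granulocytes. S100a8, S100a9 and Lcn2, which skin also makes, were not taken as specific either.

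The markers of neutrophils were only partly detected. Ly6g, the gene of the surface antigen that defines mouse neutrophils, was listed at 0 in all 6 tumors, which allows up to 3 counts per tumor or 0.0939 to 0.111 CPM. Of 11 neutrophil markers, 4 (S100a8, S100a9, Csf3r and the chemokine receptor gene Cxcr2) reached a mean of 0.5 CPM. The other 7 (Ly6g, Retnlg, Mpo, Elane, Camp, Ngp and Ltf), stayed at or under 0.35 CPM in every tumor. Most of those 7 encode granule proteins, which are made mainly by precursors in the bone marrow. Of further genes that neutrophils use and share with other cells, Mmp9 stood at 12.6 to 27.1 CPM and Fpr2 at 5.38 to 14.6 CPM. No cell type was assigned to the 9 genes, which are described by name. Ly6g belongs to a family of similar neighbouring genes between which estimated counts can be divided, and an exact 0 can also be a failed estimate. Because whole tumors were sequenced, fewer cells of a type and less RNA per cell cannot be told apart in any value below.

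Compared per kilobase of exon, the only scale on which genes are compared with each other here, the members stood far below the most abundant macrophage genes and among the less abundant ones. Over the 6 tumors the mean level was 4.51 CPM per kilobase for Acod1, 4.18 for Clec4d, 3.80 for Csf3r, 3.71 for S100a9, 3.23 for Lcn2, 1.31 for S100a8, 0.854 for Trem1 and 0.118 for Retnlg. By the same measure, the complement gene C1qa stood at 388 and Lyz2, the lysozyme of macrophages and neutrophils, at 831, while the monocyte genes Ccr2 and Ly6c2 stood at 6.48 and 4.81 and the macrophage genes Mertk and Cd163 at 2.74 and 1.89. In NaCl tumors the order began with Clec4d (4.82 ± 1.76 CPM per kilobase, SD, n = 3), S100a9 (4.47 ± 2.99) and Lcn2 (4.11 ± 1.95), followed by Acod1 (2.85 ± 2.09) and Csf3r (2.56 ± 0.454), and then S100a8 (1.66 ± 0.453) and Trem1 (1.22 ± 0.288). Neighbours in this order differed by less than the larger of their SDs, except Csf3r and S100a8. In H89-treated tumors the order began with Acod1 (6.16 ± 3.16, n = 3) and Csf3r (5.04 ± 1.45), with S100a9 (2.95 ± 4.05) and Lcn2 (2.35 ± 2.89) below Clec4d (3.55 ± 1.48). S100a8 (0.972 ± 0.978) and Trem1 (0.488 ± 0.409) were again last of the tested members, and here neighbours differed by less than the larger of their SDs except Csf3r and Clec4d.

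**Figure D1:**
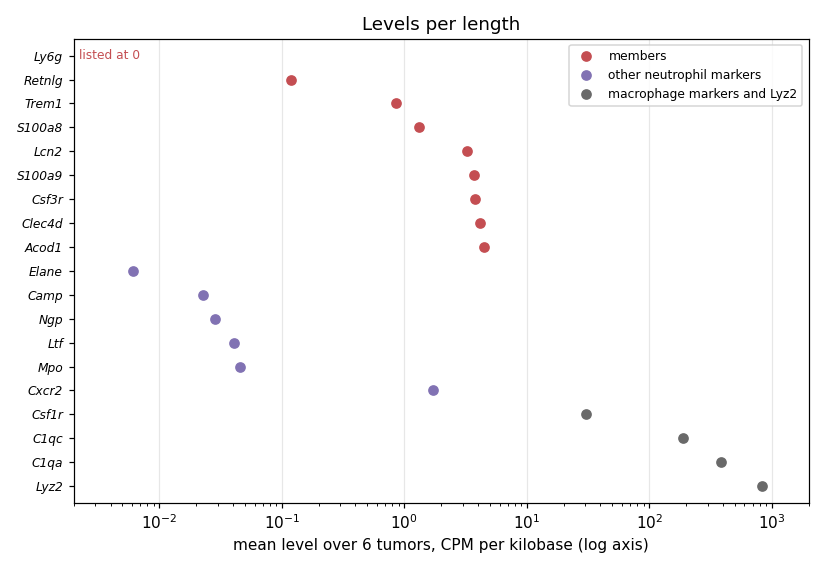
Mean level over the 6 tumors in CPM per kilobase of exon, on a log axis, for the members (red), other neutrophil markers (purple) and macrophage genes with Lyz2 (grey), each point being 1 gene. Apart from Ly6g, listed at 0, and Retnlg, the members lay between 0.854 and 4.51, well under C1qa at 388 and above the granule genes Elane, Camp, Ngp, Ltf and Mpo.

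The sequences upstream of S100a9, Trem1 and Acod1 are shown because each carries a match to a motif of a factor known in myeloid cells. They are RefSeq sequences on GRCm38.p6, from a window of 250 bases before the annotated start, shortened where an annotated exon covers it, and they read 5′ to 3′ on the gene's strand with the match in capitals. For S100a9 the stretch is chr3:90695722-90695971 on the minus strand and the capitals mark the C/EBP core TTGCNNAA. For Trem1 it is chr17:48232489-48232738 on the plus strand, with the STAT motif TTCNNNGAA. For Acod1 it is chr14:103046762-103046976 on the plus strand, with the NF-kappaB core GGNNTTNCC on the opposite strand.
S100a9: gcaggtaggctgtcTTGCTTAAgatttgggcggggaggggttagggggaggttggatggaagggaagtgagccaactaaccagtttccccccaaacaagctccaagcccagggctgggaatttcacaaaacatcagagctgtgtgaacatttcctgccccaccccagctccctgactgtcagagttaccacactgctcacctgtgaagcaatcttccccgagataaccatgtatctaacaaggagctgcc
Trem1: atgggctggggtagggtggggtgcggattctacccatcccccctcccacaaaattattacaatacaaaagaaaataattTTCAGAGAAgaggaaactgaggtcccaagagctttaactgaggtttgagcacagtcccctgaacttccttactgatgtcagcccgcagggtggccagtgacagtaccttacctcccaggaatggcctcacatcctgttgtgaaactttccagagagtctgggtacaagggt
Acod1: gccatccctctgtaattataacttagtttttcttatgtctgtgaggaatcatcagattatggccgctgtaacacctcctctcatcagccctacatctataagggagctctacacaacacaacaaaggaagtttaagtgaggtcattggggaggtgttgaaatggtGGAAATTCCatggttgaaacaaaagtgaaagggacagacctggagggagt

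All 9 members matched a RefSeq promoter, and 6 motifs were searched on both strands of the 250 bases. The C/EBP core was found in 4 of 9 windows (S100a9, Retnlg, Ly6g and Lcn2), and 9.57% of 32817 promoter windows of this length held it. The match lay at positions -236 to -229 from the start in S100a9 and at -216 to -209 in Lcn2, where an annotated exon of a longer transcript covers it. The NF-kappaB core was found for Acod1 alone, at -85 to -77, against 13.5% of all windows, and the STAT motif for Trem1 alone, at -171 to -163, against 7.01%. No window held the cAMP response element TGACGTCA (1.55% of all windows), its shorter core TGACG (17.7%), which lies within it, or the interferon-stimulated core GAAANNGAA (7.12%). These are matches of letters, not measured sites, and were not related to the levels.

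None of the 7 tested members was called by edgeR's quasi-likelihood test at a Benjamini-Hochberg adjusted p under 0.05, a threshold that 1.59% of all tested genes passed, 0.861% on the higher and 0.724% on the lower side. At an unadjusted p under 0.05, which 25.0% of all genes reached, there were 2, Csf3r on the higher side (13.1% of genes) and Trem1 on the lower side (11.9%). DESeq2, run without the CPM filter, called 1 member, Csf3r, where it called 7.39% of 18837 genes. These include genes below the filter and genes, such as Retnlg, to which it gave no adjusted p. The 3 H89 values lay wholly above the 3 NaCl values for Csf3r and wholly below them for Trem1. Such separation was seen for 20.5% and 10.0% of all genes on CPM, and for 15.2% and 15.5% on TMM-scaled CPM, so that a share of 2 in 7 was close to the background of 30.5% on CPM and 30.7% on TMM-scaled CPM. The median log2 fold change was -0.70 over the 7 members and 0.004 over all genes tested, with 2 members at a positive and 5 at a negative estimate.

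Before the single genes, 1 tumor has to be named. H89-treated tumor 3 held the highest level of all 8 detected members among the H89-treated tumors, together with the highest level of hemoglobin genes of the 6 tumors, so that each tested member's result is also given without it. It was singled out by these same values, so that lower estimates without it follow from the choice. H89-treated tumor 3 also differed from its group over genes in general. The chi-square per degree of freedom for counting error was 89.9 and 71.3 against H89-treated tumors 1 and 2. It was 30.7 between those tumors and 23.6 to 37.1 between NaCl tumors. The summed level of the erythroid list was 84.3, 64.5 and 104 CPM in NaCl tumors 1 to 3 and 29.0, 21.9 and 235 CPM in H89-treated tumors 1 to 3. Hba-a1 and Hba-a2, which encode alpha-globin, made up most of it. The erythroid gene Slc4a1 was at or under 0.0369 CPM in every tumor.

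The cytoplasmic and granule genes S100a8, S100a9 and Lcn2 were low in 2 of the 3 H89-treated tumors and as high as in the NaCl tumors in the third, and none of the 3 was called. S100a8 (chr3:90668978-90670035, plus strand, GRCm38) had 35, 22 and 40 counts in the NaCl tumors and 10, 7 and 45 in the H89-treated tumors, or 1.20, 0.813 and 1.43 CPM against 0.350, 0.219 and 1.45 CPM. H89-treated tumors 1 and 2 were below every NaCl tumor and tumor 3 above them all, so that the groups overlapped. The log2 fold change was -0.85 (SE 0.62, n = 3 and 3; adjusted p = 0.421 by edgeR). Without H89-treated tumor 3 it was -2.05 (adjusted p = 0.0918 by edgeR), and without H89-treated tumor 2 it was -0.43 (adjusted p = 0.71 by edgeR).

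S100a9 (chr3:90692632-90695721, minus strand), the partner of S100a8 in calprotectin and its neighbour on the chromosome, showed the same order of tumors within each group. It stood at 1.62, 1.26 and 4.12 CPM in the NaCl tumors and at 0.420, 0.219 and 3.98 CPM in the H89-treated tumors. Tumor 3 was the highest in each group, at like levels, and the other H89-treated tumors, at 12 and 7 counts, were lowest. The log2 fold change was -0.70 (SE 0.93; adjusted p = 0.670 by edgeR), and it moved to -2.90 without H89-treated tumor 3 (adjusted p = 0.106 by edgeR) and to -0.01 without NaCl tumor 3 (adjusted p = 0.998 by edgeR). The ratio of S100a9 to S100a8 was 1.34, 1.55 and 2.87 in the NaCl tumors and 1.20, 1.00 and 2.73 in the H89-treated tumors, again highest in tumor 3 of each group.

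Lcn2 (chr2:32384633-32388252, minus strand) was the most abundant of these 3 by CPM, at 12.5, 5.02 and 14.8 CPM in the NaCl tumors and 2.31, 1.25 and 14.9 CPM in the H89-treated tumors. Once more H89-treated tumors 1 and 2 were below every NaCl tumor, while tumor 3 equalled the highest of them within 0.1 CPM. The log2 fold change was -0.91 (SE 0.81; adjusted p = 0.515 by edgeR). It was -2.64 without H89-treated tumor 3 (adjusted p = 0.0835 by edgeR) and -0.43 without H89-treated tumor 2 (adjusted p = 0.778 by edgeR). The sum of S100a8, S100a9 and Lcn2 averaged 14.3 ± 6.71 CPM (SD, n = 3) with NaCl and 8.37 ± 10.4 CPM (n = 3) with H89, a difference smaller than either group's SD.

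Within each group, S100a8, S100a9, Lcn2 and the erythroid sum ranked the tumors alike, with tumor 3 highest and tumor 2 lowest. By root mean square distance of centred log2(CPM + 0.5) over the 6 tumors, the gene nearest to S100a9 among all tested was Hbb-b1, a beta-globin gene, at 0.31, followed by the chemokine gene Cxcl1 at 0.35, and Lcn2 was its nearest member at 0.41. The genes nearest to Lcn2 were S100a9 at 0.41 and Hba-a2 at 0.45. Hbb-b1 stood at 33.7, 29.5 and 58.6 CPM in the NaCl tumors and at 13.7, 11.3 and 117 CPM in the H89-treated tumors. The part of blood in the tumor pieces in the S100a9 and Lcn2 values was not tested. For S100a8 the nearest genes were Il11, a cytokine gene, at 0.16 and Srxn1, an antioxidant gene, at 0.20, with Clec4d its nearest member at 0.31.

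**Figure D2:**
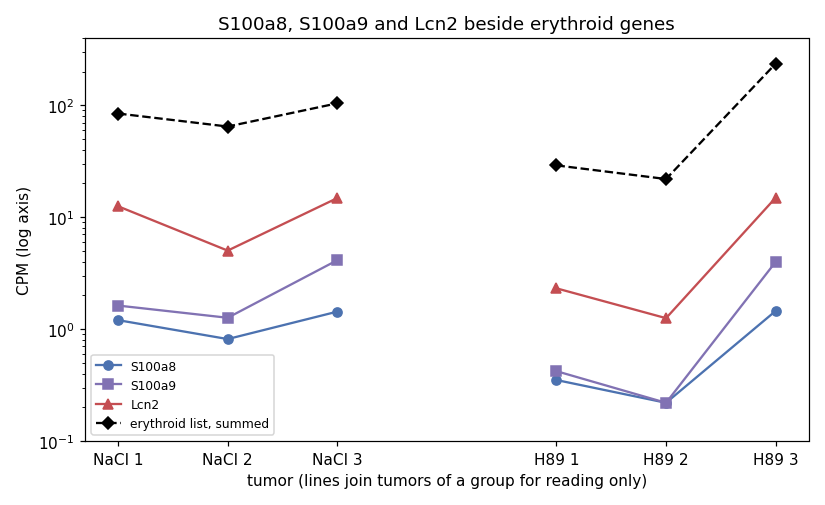
CPM on a log axis of S100a8, S100a9, Lcn2 and the summed erythroid list in each of the 6 tumors, with lines that join tumors of a group only for reading. All 4 curves were lowest in tumor 2 and highest in tumor 3 of each group, and the erythroid sum reached 235 CPM in H89-treated tumor 3.

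Retnlg and Ly6g, the members most restricted to neutrophils, were at the limit of detection. Retnlg (chr16:48872621-48874496, plus strand), a resistin-like secreted protein, had 4, 2 and 4 counts in the NaCl tumors and 0, 0 and 2 in the H89-treated tumors, so that both H89 counts came from tumor 3. Pooled by group, 10 counts of 84018883 stood against 2 of 91444482, a ratio of H89 to NaCl of 0.184 with a 95% exact interval from 0.0196 to 0.862 that covers counting error only. Among the other neutrophil markers below the filter, Ltf went the other way. It had 1, 1 and 2 counts in the NaCl tumors and 10, 6 and 5 in the H89-treated tumors. Mpo, Elane, Camp and Ngp overlapped between the groups. Ly6g (chr15:75155240-75159126, plus strand) had no count in all 6 tumors together, and no fold change can be given for it.

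The receptor gene Csf3r was the member with the smallest p, at 1.97 times the mean NaCl level, and did not follow the calprotectin genes. Csf3r (chr4:126024550-126044440, plus strand) stood at 7.37, 10.1 and 10.3 CPM in the NaCl tumors and at 15.0, 15.4 and 24.2 CPM in the H89-treated tumors. All 3 H89-treated tumors were above all NaCl tumors, H89-treated tumor 3 being the highest. The means were 9.25 ± 1.64 and 18.2 ± 5.22 CPM (SD, n = 3 each), and the log2 fold change was 0.90 (SE 0.21; adjusted p = 0.0682 by edgeR). It missed the threshold in all alternatives but DESeq2 (adjusted p = 0.0018), with adjusted p up to 0.159, and was 0.67 without H89-treated tumor 3. An exact permutation test over the tumors gave p = 0.1, the smallest that 3 against 3 allows.

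Csf3, which encodes its ligand G-CSF, was too low to test, at 0.138, 0.0739 and 0.430 CPM in the NaCl tumors and 0.140, 0 and 0.194 CPM in the H89-treated tumors. The signalling genes downstream of the receptor, Jak2 (log2 fold change 0.16, adjusted p = 0.543 by edgeR), Stat3 (0.20, 0.458) and Socs3 (-0.11, 0.668), did not pass, and without H89-treated tumor 3 Jak2 was at -0.03. The gene closest in pattern to Csf3r was Atp8a1, a phospholipid flippase gene, at a distance of 0.07. Ptprc, the gene of the pan-leukocyte antigen CD45, followed at 0.09, while the nearest member, Clec4d, was at 0.80.

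Ptprc stood at 24.1, 31.2 and 29.3 CPM in the NaCl tumors and at 47.3, 48.6 and 83.7 CPM in the H89-treated tumors (log2 fold change 1.01, SE 0.21; adjusted p = 0.0547 by edgeR), and its log2 fold change was 0.72 without H89-treated tumor 3. The ratio of Csf3r to Ptprc, taken after these values were seen, was 0.306, 0.325 and 0.350 in the NaCl tumors and 0.316, 0.317 and 0.289 in the H89-treated tumors. The groups overlapped in this ratio (0.327 ± 0.0222 and 0.308 ± 0.0160, SD, n = 3 each). Because Ptprc lay close to Csf3r in pattern over these same tumors, a near-constant ratio follows from that closeness. The ratio is therefore no separate test of what Csf3r follows. Of 15 monocyte and macrophage markers, all tested, none was called and 3 had an unadjusted p under 0.05, all higher in H89-treated tumors. Of all tested genes, 25.0% reached that p, 13.1% on the higher side. The 3 were Ccr2, the chemokine receptor of inflammatory monocytes (log2 fold change 0.93, adjusted p = 0.0662 by edgeR), Ms4a7 (0.48, 0.139) and the Fc receptor gene Fcgr1 (0.57, 0.171). The summed level of this list was 1520, 2740 and 2540 CPM in the NaCl tumors and 2170, 2320 and 2750 CPM in the H89-treated tumors, which overlapped.

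**Figure D3:**
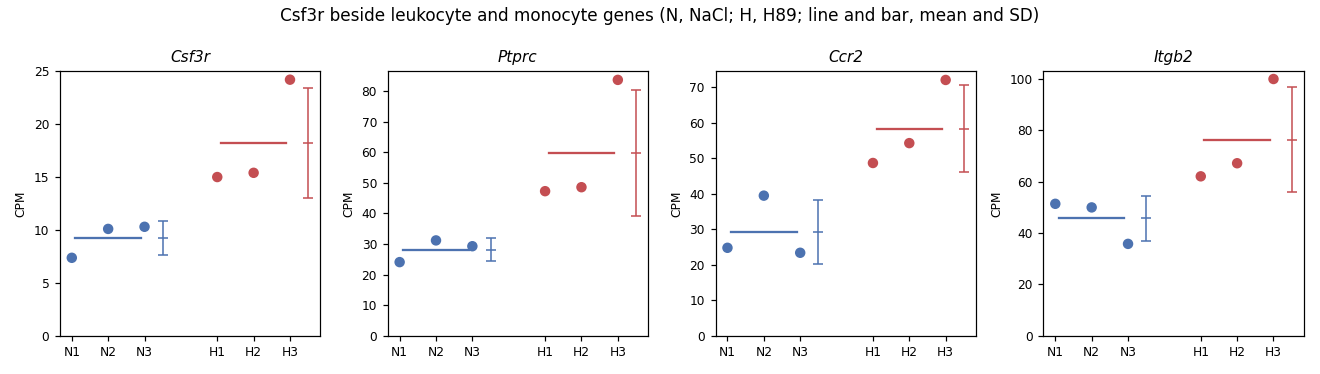
CPM of Csf3r, Ptprc, Ccr2 and the integrin gene Itgb2 in each tumor, with the group mean as a line and its SD as a bar (n = 3 each). In all 4 genes the H89-treated tumors lay above the NaCl tumors, and H89-treated tumor 3 was the highest. Such separation was seen for 20.5% of all tested genes. It was seen for 2 of the 15 monocyte and macrophage markers. Of the 15 tested surface, adhesion and transcription genes, 1 separated so.

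Clec4d and Trem1, receptors that activate myeloid cells through adaptors, had negative estimates. Clec4d (chr6:123262111-123275265, plus strand), a C-type lectin that recognises fungal and mycobacterial glycolipids, stood at 10.7, 5.10 and 7.32 CPM in the NaCl tumors and at 3.96, 4.69 and 8.37 CPM in the H89-treated tumors. H89-treated tumors 1 and 2 were below every NaCl tumor, and tumor 3 lay within the NaCl range. The log2 fold change was -0.53 (SE 0.34; adjusted p = 0.367 by edgeR), -0.89 without H89-treated tumor 3 and -0.20 without NaCl tumor 1, which had the highest value. Its nearest genes in pattern were Clip4 at 0.12 and Dner at 0.16.

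Trem1 (chr17:48232768-48246924, plus strand), an amplifier of inflammatory signals, had 109, 74 and 124 counts in the NaCl tumors and 7, 46 and 83 counts in the H89-treated tumors. These were 3.75, 2.75 and 4.46 CPM against 0.246, 1.44 and 2.70 CPM. The groups did not overlap, but the highest H89-treated tumor and the lowest NaCl tumor lay within 0.1 CPM of each other. The log2 fold change was -1.41 (SE 0.61; adjusted p = 0.198 by edgeR), -2.15 without H89-treated tumor 3 and -0.93 without H89-treated tumor 1, which held the lowest value. An exact permutation test gave p = 0.1, and adjusted p ranged from 0.0819 to 0.365 over the alternatives. Its nearest genes in pattern, Akr1c18 and Btc, lay at 0.29 and 0.31.

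The partners of these receptors did not pass the test either. Tyrobp, the adaptor of TREM1, was at a log2 fold change of 0.13 (adjusted p = 0.643 by edgeR) and Fcer1g, the adaptor of CLEC4D, at 0.23 (0.407). Clec4e, which pairs with CLEC4D, was at 0.08 (0.910), and at -0.24 without H89-treated tumor 3. Pglyrp1, a proposed TREM1 ligand, stood at 0.53 (0.413), and its level of 1.36 to 4.17 CPM was low throughout. Clec4n, a further C-type lectin receptor gene, had 31.7, 44.1 and 50.6 CPM in the NaCl tumors and 15.8, 28.1 and 28.9 CPM in the H89-treated tumors, with no overlap (log2 fold change -0.87, adjusted p = 0.0856 by edgeR). Malt1, a signalling scaffold and protease downstream of such lectins, had a log2 fold change of 0.66 (adjusted p = 0.0723 by edgeR).

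Acod1 (chr14:103046977-103056573, plus strand) was the most variable member among NaCl tumors, where its highest value was 7 times its lowest. It stood at 12.8, 7.80 and 1.83 CPM in the NaCl tumors and at 12.6, 10.2 and 25.6 CPM in the H89-treated tumors. The groups overlapped, with NaCl tumor 3 lowest and H89-treated tumor 3 highest of the 6. The log2 fold change was 1.02 (SE 0.61; adjusted p = 0.329 by edgeR) and fell to 0.56 without either of those tumors. Without NaCl tumor 1 it was 1.68 (adjusted p = 0.192 by edgeR). The genes nearest to Acod1 in pattern were Gzma at 0.21 and Gzmb at 0.25, which encode granzymes of cytotoxic lymphocytes, and its nearest member was Csf3r at 0.90. Gzma stood at 23.3, 20.2 and 5.27 CPM in the NaCl tumors and at 33.3, 21.0 and 48.1 CPM in the H89-treated tumors.

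**Figure D4:**
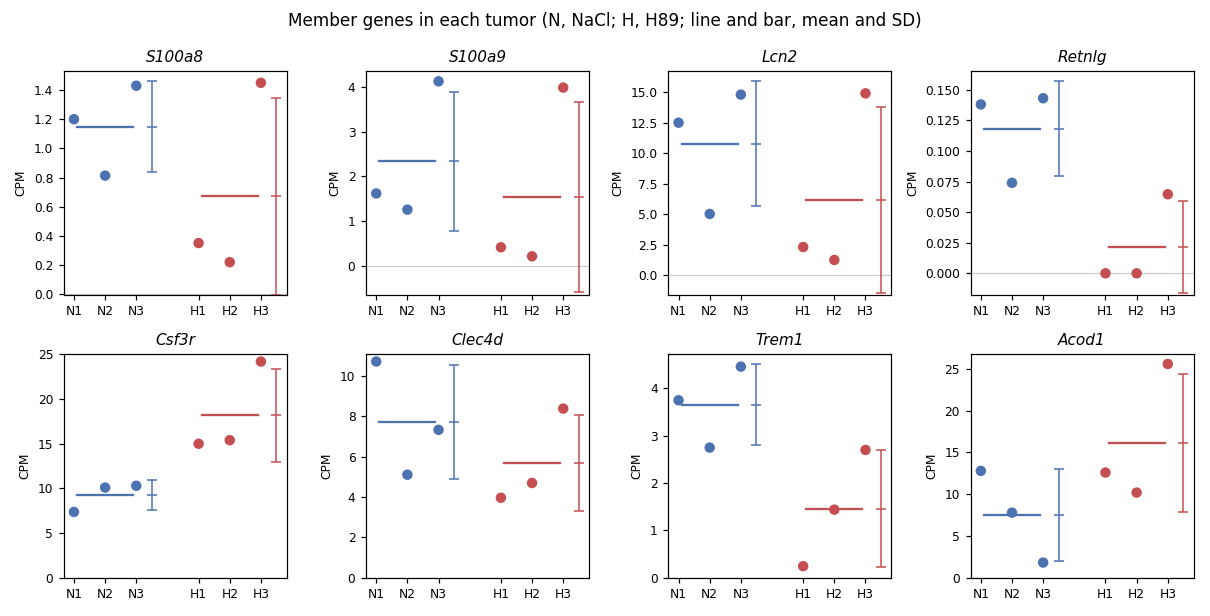
CPM of the 8 members above 0 in each of 3 NaCl (N) and 3 H89-treated (H) tumors, with group means as lines and SD as bars, on an axis of its own for each gene. S100a8, S100a9 and Lcn2 were low in H1 and H2 and high in H3, while all H89 points of Csf3r lay above, and all those of Trem1 below, the NaCl points.

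Leaving out H89-treated tumor 3 moved the count of members at an unadjusted p under 0.05 more than any other setting run. As this tumor held the highest H89 value of every detected member, lower estimates without it follow from that. The number of members at an unadjusted p under 0.05 went from 2 to 6 (Csf3r on the higher side and Clec4d, Trem1, S100a8, S100a9 and Lcn2 on the lower), where 20.0% of 13084 genes reached that p and 9.41% did so on the lower side. The same 6 did not overlap between groups, as 39.4% of all genes did not, and 14.6% of all genes had both remaining H89-treated tumors lower. By edgeR, none of the 7 was called at an adjusted p under 0.05 without this tumor, when 12 of all genes, or 0.0917%, were. The erythroid sum was also lower in both remaining H89-treated tumors (29.0 and 21.9 CPM) than in any NaCl tumor (64.5 to 104 CPM). With all 6 tumors or without any 1 of them, the sign of each tested member's estimate was the same, though S100a9 was only at -0.01 without NaCl tumor 3. The summed level of the 9 members was 50.0, 32.9 and 44.4 CPM in the NaCl tumors and 34.9, 33.4 and 81.3 CPM in the H89-treated tumors, so that 1 tumor also set this sum. Its means were 42.5 ± 8.70 and 49.9 ± 27.2 CPM (SD, n = 3 each).

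**Figure D5:**
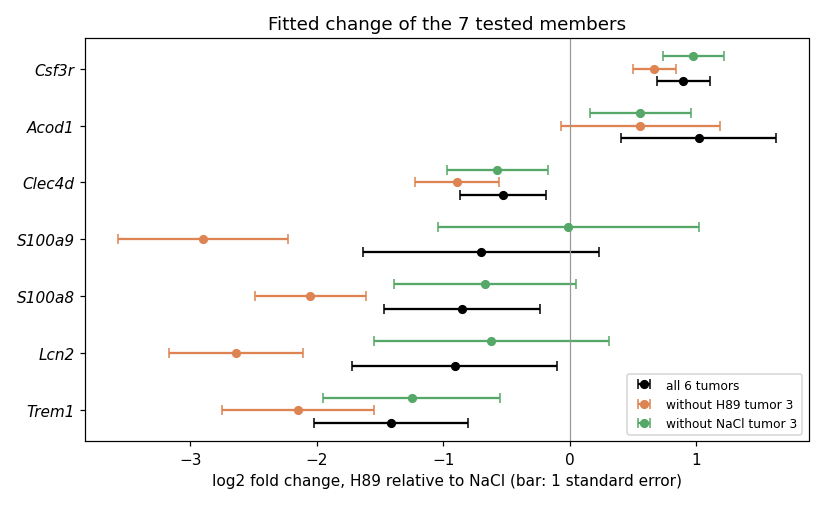
Log2 fold change of H89 relative to NaCl with 1 standard error for the 7 tested members, fitted with all 6 tumors (black), without H89 tumor 3 (orange) and without NaCl tumor 3 (green). S100a9 ranged from -2.90 to -0.01 between these fits, while Csf3r stayed between 0.67 and 0.98.

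Among other genes of the neutrophil program, none of the granule, surface or chemoattractant lists was called. An unadjusted p under 0.05, used below, was reached by 25.0% of all tested genes. Of 20 granule and effector genes, 10 were tested and none was called. Slpi, a protease inhibitor of the airways and of neutrophils, was higher (log2 fold change 0.87, adjusted p = 0.144 by edgeR) and Mmp8, neutrophil collagenase, lower (-1.29, 0.1) at an unadjusted p under 0.05, and the list's median was -0.12. Fcnb was listed at 0 in all tumors. Of 22 surface, adhesion and transcription genes, 15 were tested and none was called, with a median of -0.04. Those at an unadjusted p under 0.05 were Itgb2, the common chain of leukocyte integrins (0.66, adjusted p = 0.1 by edgeR), the transcription factor genes Gfi1 (1.62, 0.164) and, on the lower side, Cebpb (-0.48, 0.152). Fcgr4, the next by p, had 0.81 (0.225). Cxcr2, the receptor that draws neutrophils into tissue, had 5.12, 4.51 and 4.14 CPM in the NaCl tumors and 5.75, 5.02 and 6.97 CPM in the H89-treated tumors, an overlap with a log2 fold change of 0.29 (adjusted p = 0.358 by edgeR).

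Of 18 growth factors and chemoattractants, 14 were tested and none was called, with a list median of -0.18. There were 3 at an unadjusted p under 0.05, all lower in H89-treated tumors. That p was reached by 25.0% of all tested genes, 11.9% on the lower side. Cxcl3, a ligand of CXCR2, stood at 2.61, 0.702 and 2.73 CPM in the NaCl tumors and at 0.245, 0.407 and 0.743 CPM in the H89-treated tumors (log2 fold change -2.19, adjusted p = 0.0841 by edgeR). H89-treated tumor 3 lay just above NaCl tumor 2, so that the groups overlapped. C5ar1, the receptor for complement C5a, was at -0.39 (0.0822) and the platelet chemokine gene Ppbp at -1.02 (0.116), and Tnf was next by p at 0.40 (0.241). Il17a was listed at 0 in all tumors.

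Of 20 genes through which granulocytic suppressor cells are said to act, 18 were tested. Cd84, a surface receptor of the SLAM family used to mark such cells, rose, from 23.8, 25.0 and 25.3 CPM in the NaCl tumors to 33.2, 41.0 and 44.3 CPM in the H89-treated tumors (log2 fold change 0.60, SE 0.10; adjusted p = 0.0415 by edgeR). It is expressed by many other leukocytes too, and with any 1 tumor left out its adjusted p was 0.0667 to 0.142 by edgeR, above the threshold. None of this list's other genes was called. At an unadjusted p under 0.05 there were 4 in each direction, Cd84 included, and the list's median was 0.07. Over all tested genes, 13.1% were higher and 11.9% lower at that p. Tgfb1 (-0.34, adjusted p = 0.0827 by edgeR) and Wfdc17 (-0.66, 0.1) were lower in every H89-treated tumor, and Il10 (1.23, 0.122) was higher in each, at no more than 1.19 CPM. Arg1, the arginase of suppressive myeloid cells, was at 0.09 (0.936), or -0.26 without H89-treated tumor 3, with 171 CPM in NaCl tumor 1 and 44.9 and 45.3 CPM in the other two.

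Of the 22 ligands, receptors and partners of the members in the table, 19 were tested and none was called. There were 3 higher and 2 lower at an unadjusted p under 0.05, with a median of 0.14. For all tested genes the shares at that p were 13.1% higher and 11.9% lower. The receptors of calprotectin, Tlr4 (log2 fold change 0.14, adjusted p = 0.713 by edgeR) and Ager (0.15, 0.787), were among those that did not pass, Tlr4 being at -0.10 without H89-treated tumor 3, and the LCN2 receptor gene Slc22a17 was too low to test.

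Markers of other cells differed between these tumors as follows. Of 15 keratinocyte genes with a column, 4 were tested, and Cdsn, corneodesmosin, fell (log2 fold change -2.15, adjusted p = 0.0288 by edgeR, or 0.0406 to 0.119 with 1 tumor left out, under 0.05 only without NaCl tumor 1 or H89-treated tumor 3). The list's sum was 160 to 210 CPM in NaCl and 108 to 123 CPM in H89-treated tumors, made up mostly of Lgals7 and Cdsn, while Krt5 and Krt14 stayed at or under 0.172 CPM and 5 genes (Krt1, Krt15, Krt6a, Ivl and Dsg1a) were listed at 0. Krt10, an epidermal keratin gene, stood at 1.88 to 3.66 CPM. Skin also makes S100a8, S100a9 and Lcn2, and its part in their values was not tested. Of 16 eosinophil, basophil and mast cell genes, 7 were tested and none was called, and of 6 erythroid genes with a column, 4 were tested and none was called. Of the 8 epithelial and leukocyte reference genes, 5 were tested and none was called. There were 4 positive estimates, Ptprc included, and 1 negative, with a median of 1.01. The negative one was that of the epithelial gene Krt18 (log2 fold change -1.04, adjusted p = 0.0653 by edgeR). The other epithelial genes tested, at 2.72 CPM or less in every tumor, had positive estimates.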

How the data were processed

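Total RNA of 6 CT26 tumors was sequenced, and the authors deposited 1 table of estimated counts per gene and tumor. The table is called TPM, but its values summed to between 27067349 and 31958793 in a tumor. The submitters' processing notes name kallisto, DESeq2 and GRCm38, with no versions. In the record of the columns, 168 genes were named one by one and the other 23389 were read the same way. Values were rounded to whole numbers. A filter of 0.5 CPM in the mean left 13118 genes, which were fitted with edgeR 4.0.16 (R 4.3.3, TMM, glmQLFit, glmQLFTest), with Benjamini-Hochberg adjustment over all of them and a threshold of 0.05. CPM was taken on the total count. The plan had also named limma for the case that the table held TPM. Scripts were tested on simulated data.

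Other settings tried were no filter on CPM, a filter of 5 CPM, median ratio normalization, DESeq2 1.42.0, limma 3.58.1 (voom, quantile, and log2(CPM + 0.5) or log2(CPM + 1)), a block for the replicate number, and the omission of each tumor. No added setting was chosen later. At these depths 1 count is under 0.04 CPM, and 3 counts were the floor for a gene at 0. Replicates are labelled as separate tumors, so that p-values measure the spread between 3 tumors a group.

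The members and the 10 related lists were chosen with earlier results of these data known. Genes named are the members, list genes with an adjusted p under 0.05 or, failing that, the smallest p (up to 4 per list), direct ligands, receptors, adaptors and partners of the members, the 2 genes and the member nearest in pattern, and the most abundant markers. Jak2, Stat3, Socs3, Arg1, Cxcr2, Mmp9, Fpr2, Krt10, Cd163, Mertk, Ly6c2 and genes listed at or near 0 were named after their values were seen, and 1 gene that the rule names is not reported here. Positions and exon lengths come from GENCODE M21 on GRCm38.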

Additional observations from a re-analysis of the deposited data

How the results depend on the processing

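In the 15 alternatives, each tested member kept the sign of its log2 fold change wherever it was fitted. For S100a9 the estimate was only -0.01 (SE 1.03) without NaCl tumor 3. The adjusted p of each member stayed above 0.05 except for Csf3r in DESeq2 (log2 fold change 0.89), so that DESeq2 called 1 member and the other alternatives 0. A mean of at least 5 CPM left S100a8, S100a9 and Trem1 out. The number of members at an unadjusted p under 0.05 was 2 in the fit reported. It was 1 with a mean of at least 5 CPM, 1 with the median ratio normalization and 3 with quantile normalization and limma. With a tumor left out it was 1 to 6, the 6 coming without H89-treated tumor 3. That tumor also moved the members without overlap from 2 to 6, where the other omissions gave 2 to 3. Among the related lists, 2 genes were called in the fit reported, 16 by DESeq2, 5 without a filter, 1 each by limma with pseudocounts of 0.5 and 1 and with quantile normalization, and 0 to 1 with a tumor left out. Over all genes, 208 were called, against 1392 by DESeq2, 311 without a filter, 80 after quantile normalization and 0 to 12 with a tumor left out. The cause of these differences was not tested. With a tumor left out, the smaller number of tumors and the absence of that tumor cannot be told apart.

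The groups share replicate numbers. The deviations of same-numbered tumors correlated at 0.16, 0.06 and -0.03 across genes, and NaCl tumor 3 was closest to H89-treated tumor 2 (0.35), so that the numbers were not taken to pair the tumors. With the replicate block, 4 members had an unadjusted p under 0.05, where 28.6% of all genes did, and 0 members, 0 list genes and 0 of 13118 genes were called. At 7 to 123 counts per tumor for S100a8 and S100a9 and at most 4 for Retnlg, depth limits what can be seen for these 3.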

Other observations

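Mast cell genes, which belong to no comparison of the members, were highest in NaCl tumor 1. Tpsb2, a mast cell tryptase gene, stood at 92.9, 29.7 and 27 CPM in the NaCl tumors and at 26.7, 27.8 and 52.1 CPM in the H89-treated tumors. Mcpt4, a chymase gene, stood at 38.0, 15.3 and 16.4 CPM and at 18.2, 18.5 and 26.2 CPM. Tpsab1, a second tryptase gene, had a log2 fold change of -1.80 (adjusted p = 0.163 by edgeR), and Ear2, an eosinophil-associated ribonuclease gene, one of 2.79 (adjusted p = 0.103 by edgeR) at 0.0717 to 1.72 CPM. Neither passed the adjusted threshold.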
